A study of Citrus maxima and Citrus sinensis with 8 samples.

Results

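Aluminum (Al) in acid soil stops root growth in most crops, and species differ in how much of it they tolerate. The genes described here are those measured in Al-treated roots of 2 *Citrus* species and compared between the species: *C. grandis*, the pummelo, here the cultivar 'Shatian pummelo', and *C. sinensis*, the sweet orange, here 'Xuegan', which the study treats as the more Al-tolerant of the pair. Seedlings had been watered for 18 weeks with nutrient solution holding 1 mM Al (+Al) or 0 mM Al (control), and RNA came from tissue labelled root tips. Each group had 2 libraries, which the study describes as 2 biological replicates, each a pool of 5 seedlings. The methods also say that RNA was extracted 2 times per treatment. The p-values below measure only the spread between these libraries, which may be partly technical. The comparison rests on the 4 +Al libraries, 2 of each species, while the 4 control libraries show whether a difference was also there without Al. With 1 cultivar of each species, a difference between species and one between these cultivars cannot be told apart.

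Of 30151 genes in the deposited tables, 19671 reached a mean of at least 1 FPKM (sequenced fragments scaled by transcript length and by the library's mapped total) in the +Al roots of either species. The reads of both species were mapped to the *C. sinensis* genome, so a *C. grandis* transcript that differs much from its *C. sinensis* copy loses reads. For this reason 377 genes at 0 in all 4 *C. grandis* libraries were kept apart, and 19294 genes were tested. For the rest a lower level in *C. grandis* and poorer mapping of its reads cannot be told apart from the +Al libraries alone. The change of the species difference from control to +Al roots does not carry a mapping loss that is the same in both treatments, and it is given beside the +Al difference where it bears on a gene. Fewer cells of a type and less RNA per cell cannot be told apart in bulk root tips either.

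A plant root tip exposed to Al stops elongating because Al binds the pectin of young cell walls and the plasma membrane, and because division and the cytoskeleton are disturbed. Tolerance is known to rest on the export of malate and citrate, through channels of the ALMT family and carriers of the MATE family, which bind Al outside the root or in the vacuole. The zinc finger factor STOP1 switches on such genes in *Arabidopsis*. Al also precipitates phosphate, and genes for phosphate starvation and sulfur use often respond with it.

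The libraries differed in more than species. Library 1 of +Al *C. grandis* summed to 713378 FPKM, against 795854 in library 2 and 802571 and 808872 in the *C. sinensis* pair, and its values lay below those of library 2 by a median of 0.39 on the log2 scale. Its relative depth, read from the commonest ratio of low values, was 0.76 of that of *C. sinensis* +Al library 1, while the other +Al libraries lay at 0.925 and 1.00. In that library 3 genes, orange1.1t01308, orange1.1t03320 and Cs1g26280, took 5.63% of the sum, against 0.198% to 0.643% in the other 7 libraries. Across tested genes the rank correlation was 0.964 between the *C. grandis* +Al pair, 0.985 between the *C. sinensis* +Al pair and 0.808 to 0.836 between species.

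In +Al roots 2414 genes were higher and 3543 lower in *C. grandis*, measured against *C. sinensis*, which is 12.5% and 18.4% of the 19294 tested and together 30.9%. Calls required a log2 difference of 1 (2-fold) or more and an adjusted p in limma no larger than 0.05, on log2(FPKM + 0.1), a scale that understates differences of genes near 0. Differences are given as *C. grandis* minus *C. sinensis* throughout, with ± for the standard error. The median over all tested genes was -0.07. Of the called genes 414 were higher and 657 lower by a log2 of at least 3. Of all called genes 40.5% were higher in *C. grandis*, a share that was 44.7% after median-ratio rescaling of the libraries and 49.2% after quantile normalization, which moved the median of all genes by 0.13. Without *C. grandis* +Al replicate 1 it was 49.1% and without replicate 2 it was 29.4%.

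Control roots held fewer called genes, 1371 higher (7.24%) and 1791 lower (9.45%) of 18944 tested. Of the genes higher in +Al *C. grandis* roots 824 (34.1%) were also called higher in control roots and 28 were called lower there. Of those lower in +Al *C. grandis* roots 1140 (32.2%) were also lower in control roots and 25 were higher. In the test of the change itself, over all 8 libraries, 2720 of 19708 genes passed (13.8%), 1045 (5.3%) with a difference that moved up and 1675 (8.5%) with one that moved down under Al. Among the +Al calls, the change passed in the direction of the +Al difference for 679 of the higher and 1356 of the lower genes. It passed the other way for 25 and 43. Of the 679 and 1356, 28 and 25 were called the opposite way in control roots. The change takes in the same +Al libraries that made the calls. Picking genes by a large +Al difference therefore favors a change in its direction. The count of changed genes was 4135 without *C. grandis* +Al replicate 1, 1736 and 1644 without *C. sinensis* +Al replicate 1 and 2, 1780 without *C. grandis* control replicate 1, and 1680 and 1546 without *C. sinensis* control replicate 1 and 2.

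**Figure D1:**
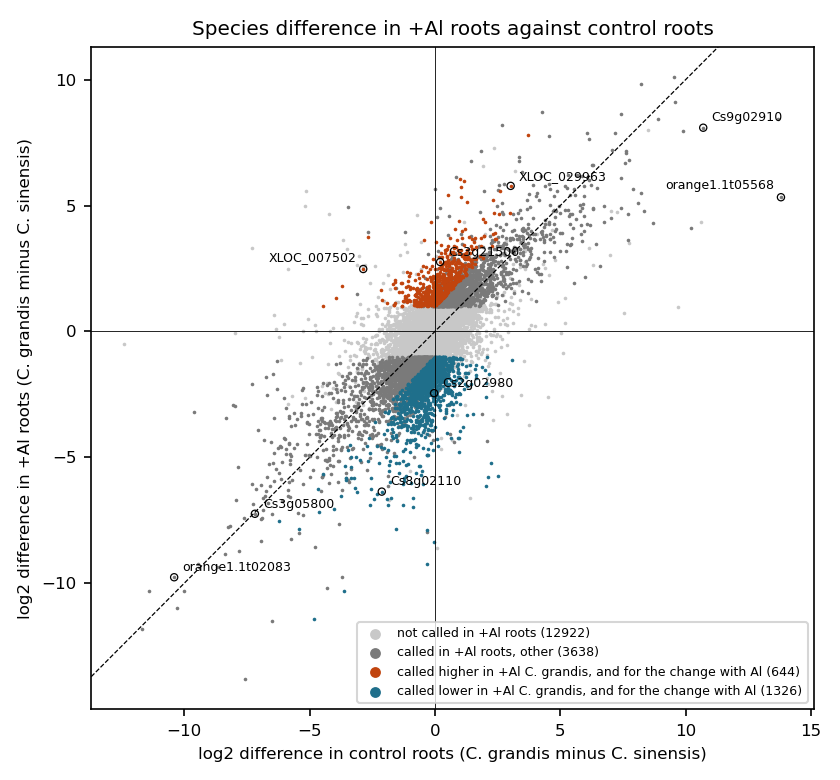
Each point is 1 of 18530 genes tested in both treatments, with the species difference in control roots on the horizontal axis and that in +Al roots on the vertical axis, both as log2 of *C. grandis* minus *C. sinensis*, and the dashed line marks equal differences. The 644 orange and 1326 blue genes were called in +Al roots and had moved in that direction with Al, while genes such as Cs9g02910, Cs3g05800 and orange1.1t02083 lie far from 0 in both treatments. Both calls draw on the same +Al libraries.

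Among genes with a description, a level of at least 5 FPKM in the higher species and values above 0 in all 4 +Al libraries, the 10 with the largest differences each way included many that stood apart in both treatments. The one furthest toward *C. grandis* was a citrus dioxygenase, Cs9g02910, at 144 and 235 FPKM in the *C. grandis* +Al libraries and 0.386 and 0.833 FPKM in the *C. sinensis* ones (log2 difference 8.09 ± 0.37, adjusted p = 2.4e-06). Its control difference was larger still, 10.71 on the log2 scale. A class III peroxidase, orange1.1t04469, at 73.3 and 83.0 FPKM against 1.54 and 1.28, differed by a log2 of 5.70 in +Al and 5.28 in control roots. For these genes, picked for their large +Al differences, the species did not overlap in either treatment.

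The defensin XLOC_029963 belonged to another kind, with a difference that grew under Al. Defensins are small secreted antimicrobial peptides. It stood at 4828 and 5706 FPKM in +Al *C. grandis* and 93.2 and 97.7 FPKM in +Al *C. sinensis* (log2 5.78 ± 0.14, adjusted p = 1.1e-07). In control roots the values were 1376 and 1235 FPKM and 155 and 166 FPKM. The level under Al was thus above that of both control libraries in *C. grandis* and below it in *C. sinensis*, and the change of the difference was 2.76 ± 0.16, adjusted p = 5.8e-05. A further defensin, Cs3g02125, was at 489.9 and 410.4 FPKM against 119.8 and 111 (log2 1.96 ± 0.16, adjusted p = 4.1e-05).

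Among the other large differences toward *C. grandis* were 3 cytochrome P450 enzymes, a family of oxidases of plant metabolism. Cs3g08680 was at 14.6 and 26.4 FPKM against 0.368 and 0.264 FPKM (log2 5.58 ± 0.41, adjusted p = 2.2e-05). Cs3g09040 was at 6.55 and 11.1 FPKM against 0.168 and 0.120 FPKM (log2 5.15 ± 0.47, adjusted p = 6.8e-05). Cs8g09390 stood out for its spread, since the *C. grandis* libraries read 8.06 and 92.4 FPKM while both *C. sinensis* libraries were under 1 FPKM, 0.682 and 0.443 (log2 5.40 ± 0.89, adjusted p = 0.0015). All 3 were closer between the species in control roots, where the log2 differences were 2.60, 1.27 and 0.53.

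A sugar transporter of the MtN3 (SWEET) family, Cs9g18460, at 38.6 and 54.5 FPKM in +Al *C. grandis* and 1.62 and 0.503 FPKM in +Al *C. sinensis*, was listed at 0 in both *C. sinensis* control libraries. A polyubiquitin gene, orange1.1t05568, was likewise at 0 in both *C. sinensis* control libraries and at 30.1 and 16.04 FPKM in the +Al ones, against 721 and 1094 FPKM in +Al *C. grandis*. Polyubiquitin genes share long repeats, so reads may move between copies. A cytokinin oxidase, Cs4g14410, which breaks down the hormone cytokinin, was at 5.79 and 8.34 FPKM against 0.0651 and 0.0721 FPKM (log2 5.39 ± 0.50, adjusted p = 6.9e-05). Its control difference was 4.05, and that of Cs4g12860, a gene described as oxidative stress 3 with a +Al difference of 5.49 ± 0.49, adjusted p = 6.2e-05, was 4.07.

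In the other direction the largest difference was again a cytochrome P450, orange1.1t02083, at 0.571 and 0.148 FPKM in +Al *C. grandis* and 355 and 352 FPKM in +Al *C. sinensis* (log2 -9.76 ± 0.42, adjusted p = 1.8e-06). The cystatin Cs3g05800, an inhibitor of cysteine proteases, was at 0.491 and 0.616 FPKM against 93.99 and 103 FPKM (log2 -7.24 ± 0.27, adjusted p = 1.0e-06). Both were as far apart in control roots, with log2 differences of -10.36 and -7.18. The same held for the receptor-like kinase orange1.1t01652 (-6.55 in +Al and -5.85 in control roots), the poly(A) polymerase Cs4g19020 (-6.14 and -6.56) and the serine hydroxymethyltransferase XLOC_010805 (-6.06 and -5.25). Such differences, near 0 in *C. grandis* in both treatments, are those for which expression and mapping cannot be told apart.

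A further set of 5 genes far lower in +Al *C. grandis* had smaller differences in control roots. The expansin-like gene Cs8g02110 was at 0.645 and 0.482 FPKM against 55.1 and 52.8 FPKM in +Al roots (log2 -6.36 ± 0.29, adjusted p = 2.5e-06) and at 2.10 and 1.67 FPKM against 8.29 and 8.67 FPKM in control roots. The TIFY 5A-like gene Cs2g03240, of a family of repressors of jasmonate signalling, was at 1.87 and 3.80 FPKM against 184 and 182 FPKM (log2 -6.04 ± 0.32, adjusted p = 5.1e-06), with control values of 26.7 and 14.5 FPKM and 49.0 and 46.8 FPKM. In both genes the +Al level lay below the control level in *C. grandis* and above it in *C. sinensis*. An integrase-type DNA-binding protein, orange1.1t03822 (log2 -6.27 ± 0.35, adjusted p = 6.4e-06), a flavonoid 3'-monooxygenase-like gene, Cs1g17420 (log2 -5.90 ± 0.34, adjusted p = 6.8e-06), and a brassinosteroid-regulated BRU1 gene of the xyloglucan enzyme family, Cs4g03145 (log2 -5.80 ± 0.29, adjusted p = 3.5e-06), had control differences of -2.53, -3.54 and -2.55.

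Genes that loosen or build the cell wall were mostly lower in +Al *C. grandis* roots. Of 36 tested expansins and xyloglucan enzymes, which loosen the wall and cut and rejoin its hemicellulose, 23 were lower and 1 higher (median -1.45), against 18.4% and 12.5% of all tested genes. Of 56 pectin enzymes 34 were lower and 3 higher (median -1.27), of 40 cellulose and callose genes 18 and 5 (median -0.82), and of 33 arabinogalactan, extensin and proline-rich wall proteins 17 and 1 (median -1.46). In control roots, where 9.45% of all tested genes were lower and 7.24% higher, the same 4 groups had 9, 11, 5 and 2 members lower, 4, 5, 3 and 2 higher, and medians of -0.44, -0.42, 0.03 and -0.33. The change with Al passed its test downward in 15, 21, 12 and 15 members and upward in 0, 0, 1 and 0.

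The xyloglucanase inhibitor Cs9g06240 was at 41.1 and 45.3 FPKM in +Al *C. grandis* and 319 and 318 FPKM in +Al *C. sinensis* (log2 -2.88 ± 0.17, adjusted p = 7.9e-06). In control roots it read 151 and 143 FPKM and 204 and 197 FPKM. Levels were thus closer without Al, and with it they lay below the control level in *C. grandis* and above it in *C. sinensis*. The same held for the xyloglucan endotransglycosylase orange1.1t02385, at 127.2 and 90.0 FPKM against 384 and 418 FPKM with Al (log2 -1.91 ± 0.19, adjusted p = 0.00012) and at 232 and 251 FPKM against 212 and 196 FPKM without. A relative, Cs4g03200, at 39.7 and 60.2 FPKM against 211 and 209 FPKM (log2 -2.10 ± 0.22, adjusted p = 0.00014), was also lower in control *C. grandis*, by a log2 of -1.29, and its change with Al did not pass the test (adjusted p = 0.065). Reads of such close relatives may be shared between copies.

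Pectin enzymes act on the polymer that binds Al. The pectinesterase Cs1g16550, which removes methyl groups from pectin, was at 177 and 132 FPKM against 389 and 395 FPKM (log2 -1.36 ± 0.18, adjusted p = 0.00043), while in control roots *C. grandis* read higher, 378 and 419 FPKM against 283 and 258 FPKM, a difference of 0.56 and so under the limit for a call. The gene orange1.1t02719 is described as of the plant invertase/pectin methylesterase inhibitor superfamily, and the study lists it under pectin deesterification. It was at 80.8 and 106 FPKM against 249 and 232 FPKM (log2 -1.38 ± 0.19, adjusted p = 0.00051), with a control difference of 0.03. Cellulose synthase subunit Cs7g05150 was at 95.6 and 119 FPKM against 235 and 249 FPKM (log2 -1.18 ± 0.18, adjusted p = 0.00089), a call lost after quantile normalization (-0.93). The cellulose synthase-like gene Cs9g08730 went the other way, with 237.9 and 300.4 FPKM in *C. grandis* and 102 and 101 FPKM in *C. sinensis* (log2 1.40 ± 0.18, adjusted p = 0.00036). In +Al roots the groups did not overlap in any of these 4 genes, which were picked because they were called there. In control roots orange1.1t02719 did overlap, at 197 and 227 FPKM in *C. grandis* and 211 and 203 FPKM in *C. sinensis*.

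Structural wall proteins gave some of the widest gaps among abundant genes. An extensin-like gene, XLOC_011383, was at 363 and 262 FPKM in +Al *C. grandis* and 1584 and 1733 FPKM in +Al *C. sinensis* (log2 -2.43 ± 0.17, adjusted p = 1.8e-05), from 733 and 881 FPKM and 1102 and 1047 FPKM in control roots. The repetitive proline-rich protein Cs4g05470 was at 156 and 70.0 FPKM against 906 and 962 FPKM (log2 -3.16 ± 0.31, adjusted p = 9.3e-05), and the proline-rich protein Cs3g08990 at 36.4 and 17.6 FPKM against 315 and 301 FPKM (log2 -3.60 ± 0.30, adjusted p = 4.3e-05). In all 3 genes, which were picked among +Al calls, library 2 of +Al *C. grandis* was lower than library 1, and both lay far under both *C. sinensis* values. The changes with Al were -2.01, -2.23 and -2.22. After median-ratio rescaling without either *C. sinensis* +Al library, the +Al calls of all 3 were lost, as were those of orange1.1t02385 and Cs1g16550.

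Class III peroxidases, which cross-link wall polymers and consume peroxide, were split. Of 42 tested, 22 were lower and 9 higher in +Al *C. grandis* (median -1.16), and in control roots 12 of 39 were lower and 5 higher (median -0.43). In +Al roots 73.8% were called, against 30.9% of all tested genes. The abundant secretory peroxidase Cs2g03110 was at 1075 and 1071 FPKM against 2190.2 and 2315 FPKM (log2 -1.07 ± 0.11, adjusted p = 0.00013), while control roots held 2209.6 and 2275 FPKM and 1982 and 1928 FPKM. Peroxidase orange1.1t02044 was at 237 and 243 FPKM against 825 and 809 FPKM (log2 -1.77 ± 0.14, adjusted p = 2.8e-05). Both calls were lost after median-ratio rescaling without either *C. sinensis* +Al library. Orange1.1t04469, described above, was the opposite case.

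**Figure D2:**
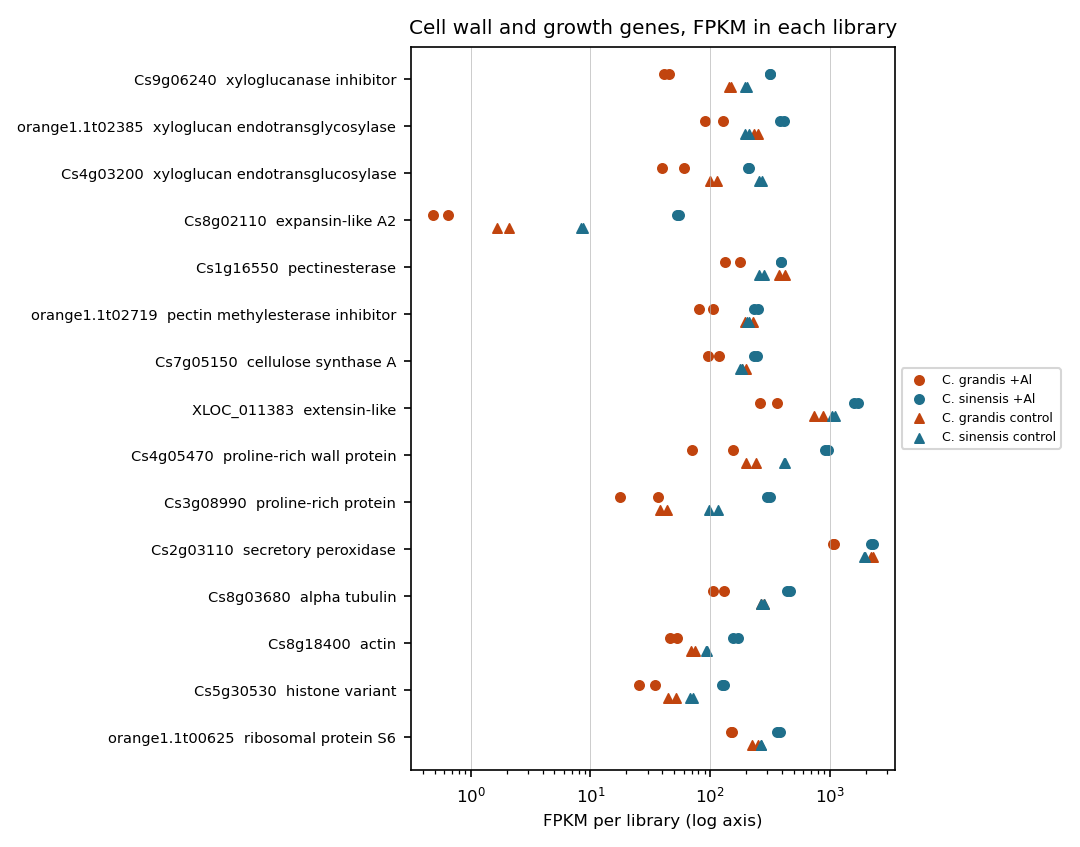
FPKM of 15 cell wall and growth genes in each of the 8 libraries, on a log axis, with orange for *C. grandis*, blue for *C. sinensis*, circles for +Al and triangles for control roots. In each row both +Al *C. grandis* circles lie to the left of both +Al *C. sinensis* circles, while the control triangles of the species lie closer together, as for Cs9g06240 at 41.1 and 45.3 FPKM against 319 and 318 FPKM with Al. All 15 were picked among genes called lower in +Al *C. grandis*, so the order of the circles follows from the pick. Called genes that went the other way, such as Cs9g08730, are not drawn. The row label of orange1.1t02719 shortens the superfamily name in its description, and the study lists the gene under pectin deesterification.

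Among growth genes, most members did not pass the test, and those called were mostly lower in +Al *C. grandis*. Of 111 tested genes for cell division, DNA replication and histones 43 were lower and 4 higher (median -0.88), where control roots had 7 lower and 2 higher of 104. In +Al roots 42.3% of them were called, against 30.9% of all tested genes. The count of 43 was 24 without *C. sinensis* +Al replicate 1 and 28 without replicate 2. The histone gene Cs8g18050 was at 59.2 and 33.0 FPKM against 172 and 152 FPKM (log2 -1.87 ± 0.27, adjusted p = 0.00071), and the histone variant gene Cs5g30530 at 34.4 and 25.7 FPKM against 125 and 131 FPKM (log2 -2.10 ± 0.21, adjusted p = 0.00011). Neither was called in control roots (-0.34 and -0.54).

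Of 80 cytoskeleton genes 21 were lower and 2 higher (median -0.41), with 12 lower without *C. sinensis* +Al replicate 1 and 13 without replicate 2. With all libraries 28.8% of the cytoskeleton genes were called, near the 30.9% of all tested genes, of which 18.4% were lower and 12.5% higher. An alpha tubulin, Cs8g03680, a subunit of microtubules, was at 129 and 107 FPKM against 442 and 465 FPKM with Al (log2 -1.95 ± 0.16, adjusted p = 4.3e-05) and at 283 and 267 FPKM against 268 and 283 FPKM without. The tubulin Cs3g16600 (log2 -2.02 ± 0.18, adjusted p = 5.9e-05) and the actin Cs8g18400 (log2 -1.71 ± 0.18, adjusted p = 0.00015) had control differences of -0.42 and -0.40. The calls of these 3 genes and of both histones were lost after median-ratio rescaling without either *C. sinensis* +Al library. Tubulin and actin genes are alike enough for reads to be split between copies.

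Of 82 proteins of the cytosolic ribosome 18 were lower in +Al *C. grandis* and 0 higher (median -0.79), and in control roots 4 of 81 were lower (median -0.07). Their share of lower genes was close to that of all genes, 18.4%, while the median lay further below 0. Ribosomal protein S6-like orange1.1t00625 was at 149.7 and 151 FPKM against 359 and 383 FPKM (log2 -1.30 ± 0.15, adjusted p = 0.00022). Ribosomal protein S14-like Cs2g03510, at 175 and 172 FPKM against 362 and 378 FPKM (log2 -1.09 ± 0.15, adjusted p = 0.00051), lost its call after quantile normalization (-0.83), and both lost it after median-ratio rescaling without either *C. sinensis* +Al library.

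Markers of cell types moved too, and their part in the wall and growth results was not tested. Of 11 tested xylem genes (laccases and xylem proteases) 8 were lower and 0 higher in +Al *C. grandis* (median -1.90), and 5 were lower in control roots. Laccase 3, Cs8g20850, was at 16.5 and 20.3 FPKM against 64.4 and 72.9 FPKM (log2 -1.90 ± 0.22, adjusted p = 0.00022), laccase-4-like Cs8g19850 at 2.90 and 3.35 FPKM against 18.9 and 16.1 FPKM (log2 -2.44 ± 0.28, adjusted p = 0.0002), and the xylem cysteine proteinase Cs8g01170 at 22.3 and 22.4 FPKM against 75.2 and 76.8 FPKM (log2 -1.76 ± 0.20, adjusted p = 0.00019). The summed level of all 19 xylem genes did not follow, at 639.6 and 685 FPKM in +Al *C. grandis* against 624 and 634 FPKM in +Al *C. sinensis*. For 9 genes described as root hair or COBRA-like wall proteins, the sums were 71.2 and 104 FPKM against 231 and 242 FPKM, and 3 of 5 tested were lower, among them Cs9g02720 (log2 -2.39 ± 0.25, adjusted p = 0.00012) and orange1.1t05508 (log2 -3.58 ± 0.40, adjusted p = 0.00018).

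Casparian strip genes of the endodermis were mixed, with 2 higher and 4 lower of 13, and their sums were 394 and 477.7 FPKM in +Al *C. grandis* and 493 and 527 FPKM in +Al *C. sinensis*. Neither of 2 phloem genes was called, and their sums were 9.57 and 18.3 FPKM against 9.16 and 9.42 FPKM. The only root cap gene read 12.2 and 13.2 FPKM against 21.2 and 20.2 FPKM and was not called. For 40 green tissue genes the sums were 336 and 395 FPKM against 268 and 265 FPKM, with 3 higher and 2 lower of 21 tested. These sums over all matched members include genes that were not tested.

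**Figure D3:**
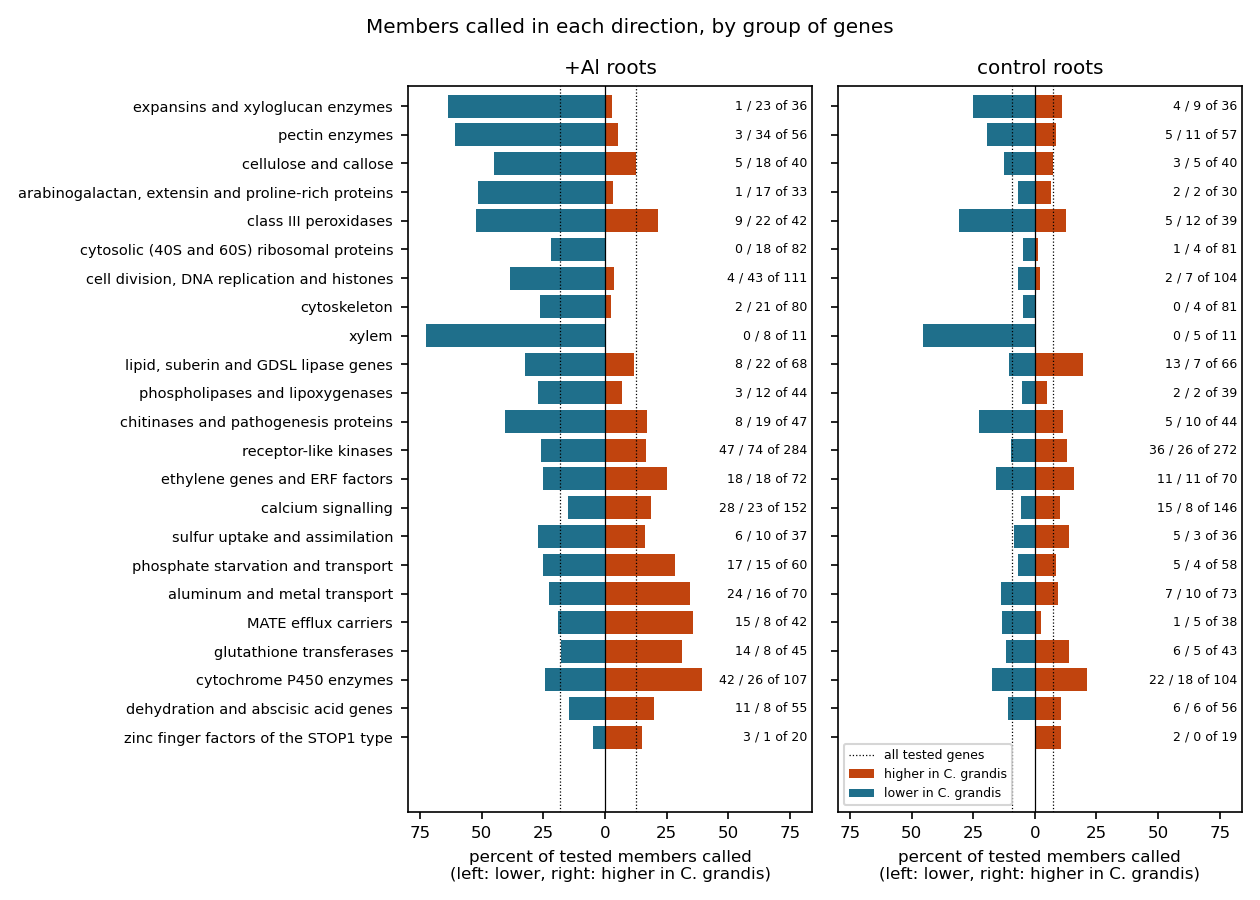
Percent of the tested members of 23 gene groups that were called higher (to the right) or lower (to the left) in *C. grandis*, in +Al roots and in control roots, with the counts as higher / lower of tested, and dotted lines at the shares of all tested genes. In +Al roots the 4 wall groups reach furthest to the left besides xylem and the peroxidases, while cytochrome P450, MATE and metal transport genes reach furthest to the right.

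MATE carriers had more calls toward *C. grandis* than away from it. In +Al roots 54.8% of those tested were called, against 30.9% of all tested genes. Of 42 tested MATE carriers 15 were higher and 8 lower (median 0.44), against 1 higher and 5 lower of 38 in control roots, and the 15 became 8 without *C. sinensis* +Al replicate 1, while the 8 lower became 4 and 3 without *C. sinensis* +Al replicate 1 and 2. An abundant one was Cs7g01770, described as FRD3b, named after the citrate exporter of the *Arabidopsis* root, at 650.1 and 956 FPKM in +Al *C. grandis* and 260.0 and 248 FPKM in +Al *C. sinensis* (log2 1.63 ± 0.19, adjusted p = 0.00021). In control roots it read 38.4 and 34.5 FPKM and 26.1 and 25.1 FPKM. Both species thus held far more of it with Al than without, and *C. grandis* the most, with a change of the difference of 1.13 ± 0.24, adjusted p = 0.015. Its +Al call was lost after median-ratio rescaling without either *C. sinensis* +Al library.

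The MATE carriers Cs2g30280 and Cs3g16650 were higher in +Al *C. grandis* as well. Cs2g30280 was at 152 and 138 FPKM against 15.7 and 12.7 FPKM (log2 3.35 ± 0.21, adjusted p = 1.1e-05), and Cs3g16650 at 33.9 and 61.2 FPKM against 8.96 and 9.85 FPKM (log2 2.27 ± 0.30, adjusted p = 0.00046). In control roots their log2 differences were 1.91 and 0.63, and in *C. sinensis* the +Al levels of Cs3g16650 lay below the control levels of 19.4 and 20.6 FPKM. What each carries is not given by its description.

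Of 9 ALMT malate channels 6 were tested, and 1 was higher and 2 lower. The channel gene Cs6g12780, near 0 without Al and well above it with Al in both species, was at 28.7 and 40.3 FPKM in +Al *C. grandis* and 21.7 and 19.1 FPKM in +Al *C. sinensis*, from 0 and 0.191 FPKM and 0.0827 and 0.345 FPKM in control roots. Its species difference of 0.74 ± 0.25, adjusted p = 0.04 was below the limit of 1 for a call. Cs5g31410, an ALMT13-like gene, was called higher at low levels, 3.36 and 6.30 FPKM against 0.293 and 0.427 FPKM (log2 3.37 ± 0.49, adjusted p = 0.00074). Cs6g12750, at 0.538 and 0.0838 FPKM against 1.66 and 1.72 FPKM (log2 -2.38 ± 0.69, adjusted p = 0.023), lost its call after median-ratio rescaling (-2.29) and after quantile normalization (-2.47).

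The STOP1-like zinc finger genes XLOC_021890 and XLOC_021891 were both higher in +Al *C. grandis*. They were at 25.9 and 32.4 FPKM against 4.29 and 4.92 FPKM (log2 2.63 ± 0.26, adjusted p = 0.0001) and at 34 and 45.3 FPKM against 6.05 and 6.13 FPKM (log2 2.67 ± 0.25, adjusted p = 7.9e-05). In control roots XLOC_021890 was at 2.72 and 2.59 FPKM against 0.955 and 0.904 FPKM and was already called higher in *C. grandis* (log2 1.42, adjusted p = 0.011), while XLOC_021891 was too low there to be tested. The change with Al passed for XLOC_021890 (1.21 ± 0.31, adjusted p = 0.03) and not for XLOC_021891 (1.25 ± 0.39, adjusted p = 0.059). The IDs are neighbours with the same description, so they may be parts of the same transcript or share reads. Of 20 tested genes in the STOP1-type zinc finger list 3 were higher and 1 lower, or 20% called, below the 30.9% of all tested genes.

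Among 70 tested genes of Al and metal transport, a list that includes part of the MATE carriers, 24 were higher and 16 lower (median -0.01). The counts were 15 higher and 14 lower without *C. sinensis* +Al replicate 1, and 20 and 19 without *C. grandis* +Al replicate 2. The oligopeptide transporter Cs2g01740 was at 688 and 1069 FPKM against 187 and 196 FPKM (log2 2.16 ± 0.20, adjusted p = 7.6e-05), the iron regulated gene Cs6g09440, of a family known for iron and nickel transport in *Arabidopsis*, at 53.4 and 75.5 FPKM against 22.6 and 19.9 FPKM (log2 1.58 ± 0.24, adjusted p = 0.0009), and the heavy-metal-associated protein Cs8g02620 at 487 and 446 FPKM against 166 and 168 FPKM (log2 1.48 ± 0.15, adjusted p = 0.00011). Levels of Cs6g09440 were alike without Al, 3.98 and 3.07 FPKM against 3.37 and 4.21 FPKM.

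Further heavy-metal transport and detoxification genes, Cs3g18690 (log2 2.09 ± 0.23, adjusted p = 0.00019) and Cs5g03070 (log2 1.59 ± 0.22, adjusted p = 0.0006), were higher too. The metal transporter Nramp6, XLOC_029822, was lower in +Al *C. grandis*, 7.74 and 10.5 FPKM against 32.0 and 34 FPKM (log2 -1.86 ± 0.25, adjusted p = 0.00051). So was the zinc transporter Cs2g10720, at 4.64 and 7.51 FPKM against 24.6 and 27.7 FPKM (log2 -2.13 ± 0.29, adjusted p = 0.00057), which was also lower in control *C. grandis* (-1.64).

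**Figure D4:**
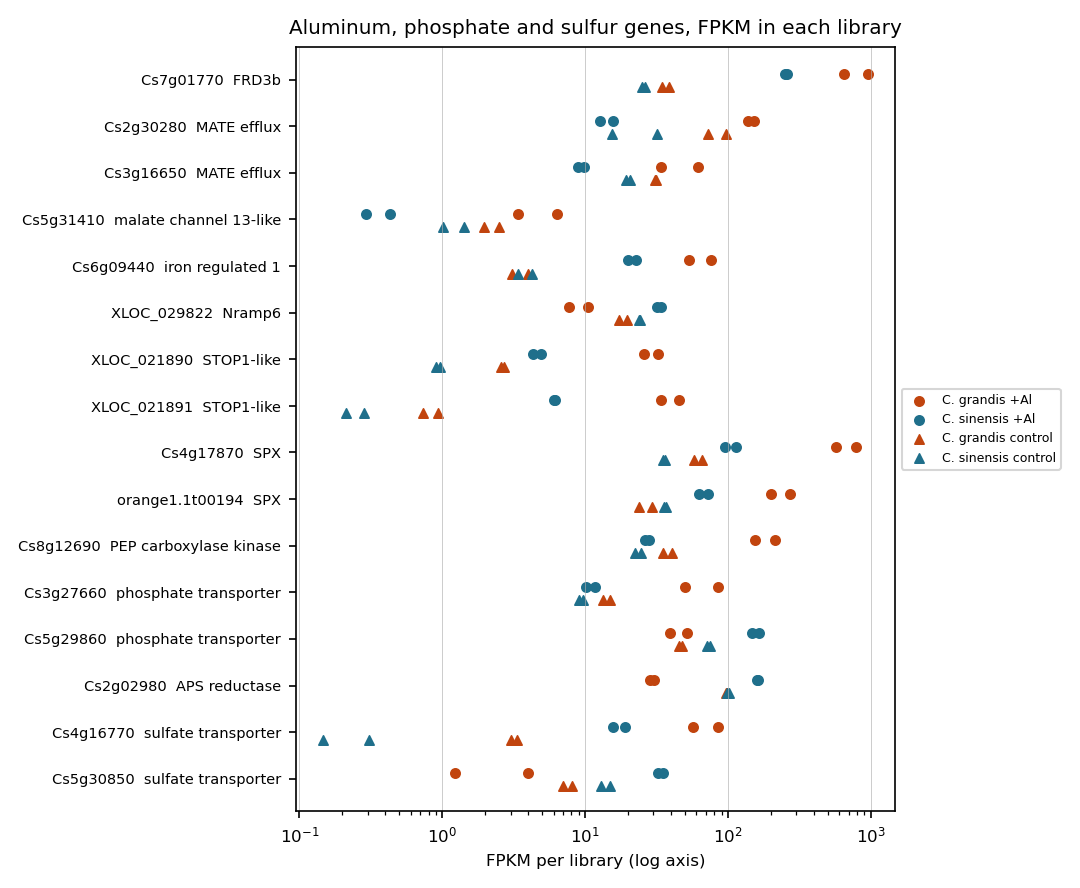
FPKM of 16 genes of Al, phosphate and sulfur handling in each of the 8 libraries, on a log axis, with orange for *C. grandis*, blue for *C. sinensis*, circles for +Al and triangles for control roots. Both +Al *C. grandis* circles lie to the right of both *C. sinensis* circles for FRD3b (650.1 and 956 FPKM against 260.0 and 248 FPKM), the SPX genes and the STOP1-like genes, and to the left for APS reductase (28.5 and 30.3 FPKM against 162 and 160.2 FPKM). The genes drawn were picked among those called in +Al roots.

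Phosphate starvation genes were called in both directions, 53.3% of those tested against 30.9% of all tested genes. Of 60 tested 17 were higher and 15 lower in +Al *C. grandis* (median 0.00), and the 17 became 10 without *C. sinensis* +Al replicate 2. Higher members included 3 genes with an SPX domain, which in *Arabidopsis* and rice sense the phosphate status of the cell. Cs4g17870 was at 568 and 789.9 FPKM against 114 and 95.3 FPKM (log2 2.68 ± 0.20, adjusted p = 2.2e-05), orange1.1t00194 at 199 and 271 FPKM against 72.9 and 62.8 FPKM (log2 1.78 ± 0.20, adjusted p = 0.00021) and Cs7g05340 at 200.4 and 262 FPKM against 69.5 and 64.0 FPKM (log2 1.78 ± 0.19, adjusted p = 0.00015). In control roots the log2 differences were 0.78, -0.46 and 0.94, none of them called.

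The phosphoenolpyruvate carboxylase kinase Cs8g12690, which activates an enzyme of malate synthesis, followed the SPX genes, with 154 and 212 FPKM against 26.4 and 27.9 FPKM (log2 2.73 ± 0.21, adjusted p = 2.9e-05) and control values of 35.2 and 40.4 FPKM and 24.5 and 22.4 FPKM. Phosphate transporters went both ways. Cs3g27660 was at 49.9 and 84.7 FPKM against 11.6 and 10.1 FPKM (log2 2.58 ± 0.28, adjusted p = 0.00017), and Cs5g29860 at 38.9 and 51.3 FPKM against 146 and 165 FPKM (log2 -1.79 ± 0.20, adjusted p = 0.0002). With Al, Cs3g27660 read above its control level in both *C. grandis* libraries and Cs5g29860 in both *C. sinensis* libraries.

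Phosphatases were divided as well. Purple acid phosphatases release phosphate from organic compounds. Purple acid phosphatase orange1.1t02445 was higher in *C. grandis* with a like difference in both treatments, 2.23 and 2.23. Another, orange1.1t02668, was listed at 0 in all 4 *C. grandis* libraries and at 20.5 and 17.0 FPKM in +Al *C. sinensis*. The haloacid dehalogenase-like hydrolases Cs8g18760, at 5.66 and 2.13 FPKM against 69.7 and 73.4 FPKM (log2 -4.32 ± 0.40, adjusted p = 6.9e-05), and Cs2g11750, at 9.98 and 11.4 FPKM against 41.9 and 42.7 FPKM (log2 -1.98 ± 0.23, adjusted p = 0.0002), were lower in +Al *C. grandis* and not called in control roots.

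Among the sulfur genes was a difference called with Al and close to 0 without it. The 5'-adenylylsulfate (APS) reductase Cs2g02980, a key enzyme of sulfate assimilation, was at 28.5 and 30.3 FPKM in +Al *C. grandis* and 162 and 160.2 FPKM in +Al *C. sinensis* (log2 -2.45 ± 0.18, adjusted p = 2.5e-05). In control roots it read 97.2 and 98.3 FPKM and 102 and 98.2 FPKM, where the species overlap (log2 -0.03, adjusted p = 0.71). Its change with Al was -2.42 ± 0.15, adjusted p = 9.8e-05. Over the 37 tested sulfur genes 6 were higher and 10 lower (median 0.24), or 43.2% called, against 30.9% of all tested genes.

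S-adenosylmethionine synthases, which make the methyl donor of the cell, were among the lower genes. Orange1.1t01755 was at 319 and 304 FPKM against 717 and 785 FPKM (log2 -1.27 ± 0.14, adjusted p = 0.00015) and Cs9g01410 at 102 and 94.9 FPKM against 307 and 312 FPKM (log2 -1.65 ± 0.16, adjusted p = 8.5e-05). The sulfotransferase Cs1g16430 was lower by more, 0.516 and 0.262 FPKM against 22.1 and 22.1 FPKM (log2 -5.55 ± 0.38, adjusted p = 1.6e-05). None of the 3, which were picked among +Al calls, overlapped between species in +Al roots.

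Sulfate transporters were again split. Cs4g16770 was at 56.9 and 85.5 FPKM against 15.6 and 19.1 FPKM (log2 2.01 ± 0.26, adjusted p = 0.00037) and also higher in control *C. grandis* (3.37), at 3.0 and 3.35 FPKM. Cs5g30850 was at 4.0 and 1.23 FPKM against 32.5 and 35.1 FPKM (log2 -3.86 ± 0.46, adjusted p = 0.00026). Cs3g18650 did not pass in +Al roots (0.40 ± 0.23, adjusted p = 0.21), although it was called higher in control *C. grandis* (1.35). A sulfite exporter of the TauE family, Cs1g15070, was at 11.7 and 15.1 FPKM against 1.14 and 1.38 FPKM (log2 3.31 ± 0.32, adjusted p = 9.4e-05).

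Of 13 aquaporins, water channels of the cell and vacuole membranes, 2 were higher and 2 lower, with 5 lower without *C. grandis* +Al replicate 2. With all libraries 30.8% of the aquaporins were called, against 30.9% of all tested genes. The tonoplast aquaporin Cs4g19580 was at 245 and 310.3 FPKM against 64.3 and 69.3 FPKM (log2 2.04 ± 0.18, adjusted p = 6.3e-05), and the plasma membrane aquaporin Cs8g02530 at 36.1 and 50.4 FPKM against 104 and 119.6 FPKM (log2 -1.38 ± 0.22, adjusted p = 0.0012). The vacuolar proton pump orange1.1t01399 (log2 1.30 ± 0.18, adjusted p = 0.00052), the potassium transporter Cs2g11370 (log2 1.59 ± 0.24, adjusted p = 0.001) and the nitrite transporter Cs7g13200 (log2 1.32 ± 0.17, adjusted p = 0.00036) were higher in +Al *C. grandis*. Control differences of these 5 genes were 1.62, 0.05, 0.50, 0.03 and 0.11, so that of them the tonoplast aquaporin alone was called without Al.

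Cytochrome P450 enzymes had more calls toward *C. grandis* than away from it. Of 107 tested, 42 were higher and 26 lower (median 0.61), and in control roots 22 and 18 of 104 (median 0.15). In +Al roots 63.6% of these enzymes were called, against 30.9% of all tested genes. With Al the difference moved up in 27 and down in 12 of 112 tested for the change, against 5.3% and 8.5% of all genes. Cs7g15460, of the CYP87 family, was at 103 and 121 FPKM against 29.4 and 27.8 FPKM (log2 1.97 ± 0.20, adjusted p = 0.00011). Its control difference of 1.45 was called as well. Cs5g07230, described as P450 94A2, went the other way, at 2.39 and 3.03 FPKM against 67.7 and 71.4 FPKM (log2 -4.64 ± 0.25, adjusted p = 5.6e-06).

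Glutathione transferases conjugate toxic compounds and peroxides. Of 45 tested 14 were higher and 8 lower (median 0.48), with 9 higher without *C. grandis* +Al replicate 2 and 4 lower without *C. sinensis* +Al replicate 1. Cs7g15760 was at 129.6 and 196 FPKM against 12.6 and 12.9 FPKM (log2 3.63 ± 0.24, adjusted p = 1.4e-05), a difference that control roots shared (3.0). The tau-class enzyme orange1.1t03617 was at 327 and 365 FPKM against 158 and 132 FPKM (log2 1.26 ± 0.17, adjusted p = 0.00045). The thioredoxin reductase Cs1g26810 was lower in +Al *C. grandis*, 42.2 and 73.6 FPKM against 308 and 298.9 FPKM (log2 -2.44 ± 0.25, adjusted p = 0.00012), where control roots held 278 and 261 FPKM and 309 and 312 FPKM.

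In terpene synthesis 3 genes of geranylgeranyl pyrophosphate synthase, which makes the precursor of diterpenes, carotenoids and the tail of chlorophyll, were higher in +Al *C. grandis*. Cs3g03630 was at 42.3 and 68.1 FPKM against 5.98 and 5.89 FPKM (log2 3.16 ± 0.28, adjusted p = 5.8e-05), its neighbour Cs3g03640 at 29.2 and 50.4 FPKM against 3.85 and 3.86 FPKM (log2 3.28 ± 0.30, adjusted p = 7.1e-05) and Cs4g20160 at 22.5 and 39.0 FPKM against 6.26 and 3.74 FPKM (log2 2.59 ± 0.35, adjusted p = 0.00052). None was called in control roots. As copies with 1 description they may share reads, and the 3 are not independent. The whole list of 32 tested terpene genes had 9 higher and 6 lower, with a median of -0.38.

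Sugars decide the taste of several citrus compounds, since rhamnose can make a flavanone bitter and glucose removes the bitterness of limonoids. The rhamnosyltransferase orange1.1t01523, which adds rhamnose to flavanone glucosides, was at 61.8 and 114 FPKM against 12.6 and 12.6 FPKM (log2 2.73 ± 0.29, adjusted p = 0.00015). The limonoid glucosyltransferase Cs8g04920 was at 77.3 and 92.0 FPKM against 28.0 and 26.4 FPKM (log2 1.63 ± 0.20, adjusted p = 0.00033), and the type III polyketide synthase orange1.1t05354 at 111 and 178 FPKM against 14.4 and 15.0 FPKM (log2 3.25 ± 0.25, adjusted p = 2.9e-05). Each was closer between the species without Al, at 0.97, -0.32 and 0.43. Over the lists of 56 flavonoid genes 13 were higher and 13 lower, the 13 higher being 8 without *C. grandis* +Al replicate 2, and of 50 UDP-glycosyltransferases 12 and 13.

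The caffeic acid O-methyltransferases orange1.1t05016 and orange1.1t05018, enzymes of lignin precursors, were higher in +Al *C. grandis*, at 208 and 235 FPKM against 59.6 and 48.9 FPKM (log2 2.03 ± 0.19, adjusted p = 6.8e-05) and 132 and 199 FPKM against 56.5 and 49.3 FPKM (log2 1.62 ± 0.23, adjusted p = 0.00062). Only the former was called in control roots too (1.11 against -0.10), and as close copies they may share reads. The list of 63 tested lignin and phenylpropanoid genes had 13 higher and 21 lower. The glycosyltransferase Cs8g18310 changed sides, lower in +Al *C. grandis* at 16.8 and 13.6 FPKM against 49.8 and 45.6 FPKM (log2 -1.65 ± 0.23, adjusted p = 0.00055) and higher in control *C. grandis* at 43.5 and 41.2 FPKM against 16.1 and 17.9 FPKM (log2 1.31, adjusted p = 0.00074).

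In +Al roots 44.1% of the tested lipid genes were called, against 30.9% of all tested genes. Lipid genes were mostly lower in +Al *C. grandis* among those called, with 22 lower and 8 higher of 68 tested (median -0.45), while in control roots 7 were lower and 13 higher of 66. The 8 became 4 without *C. sinensis* +Al replicate 1 and 3 without replicate 2. The omega-3 fatty acid desaturase Cs6g08600, which makes linolenic acid, was at 24.6 and 35.4 FPKM against 239 and 249 FPKM (log2 -3.04 ± 0.21, adjusted p = 1.9e-05). Lipoxygenase 3, Cs1g17380, which opens the path from linolenic acid to jasmonate in *Arabidopsis*, was at 19.7 and 38.5 FPKM against 158 and 163 FPKM (log2 -2.54 ± 0.29, adjusted p = 0.00021), and non-specific phospholipase C3, Cs7g15610, at 65.5 and 82.3 FPKM against 196 and 196 FPKM (log2 -1.42 ± 0.18, adjusted p = 0.0004). Lipoxygenase LOX1, orange1.1t03773, was higher, 1654 and 2124 FPKM against 826 and 738 FPKM (log2 1.26 ± 0.15, adjusted p = 0.00023).

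Several genes of dehydration and abscisic acid (ABA), the hormone of water stress, were higher in +Al *C. grandis*. Of the tested list 34.5% was called in either direction, near the 30.9% of all tested genes. Of 55 tested 11 were higher and 8 lower (median 0.31), with 7 higher without *C. sinensis* +Al replicate 2. The group 5 late embryogenesis abundant protein Cs9g04210 was at 8709 and 7855 FPKM against 2346 and 2599 FPKM (log2 1.74 ± 0.10, adjusted p = 8.6e-06), and its levels lay below those of control roots in both species. The ABA receptor orange1.1t00478 was at 362 and 461 FPKM against 107 and 114 FPKM (log2 1.88 ± 0.17, adjusted p = 6.9e-05). The ABA, stress and ripening gene Cs3g21500 was at 373 and 488 FPKM against 64.4 and 61.4 FPKM with Al (log2 2.76 ± 0.18, adjusted p = 1.4e-05) and at 126 and 149 FPKM against 118 and 119.8 FPKM without, so that *C. grandis* lay above and *C. sinensis* below its control level. A neighbouring copy may take part of its reads.

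Regulators were divided in each family. Of 72 ethylene genes and ERF factors 18 were higher and 18 lower, and the 18 higher became 11 without *C. grandis* +Al replicate 2. ERF gene orange1.1t00299 was at 85.8 and 107 FPKM against 12.4 and 12.1 FPKM (log2 2.95 ± 0.22, adjusted p = 2.3e-05), with a control difference of 2.26, and Cs5g33540 at 49.1 and 54.1 FPKM against 180.2 and 176 FPKM (log2 -1.79 ± 0.18, adjusted p = 9.8e-05), with control values of 203 and 195 FPKM and 196 and 190.1 FPKM. Of 30 WRKY factors, regulators of defense, 5 were higher and 4 lower, and of 58 MYB factors 6 and 14. Called shares were thus 30% and 34.5%, near the 30.9% of all tested genes. The 5 higher WRKY factors became 3 without *C. sinensis* +Al replicate 1, the 4 lower ones 7 without *C. grandis* +Al replicate 2, and the 6 higher MYB factors 10 without *C. grandis* +Al replicate 1 and 3 without either *C. sinensis* +Al replicate.

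The WRKY gene Cs7g06320 was at 37.5 and 63.8 FPKM against 353 and 328 FPKM (log2 -2.80 ± 0.25, adjusted p = 5.6e-05), while XLOC_011885, described as a truncated WRKY factor, was at 82.5 and 93.5 FPKM against 18.8 and 16.8 FPKM (log2 2.30 ± 0.21, adjusted p = 6.4e-05) and higher in control *C. grandis* too (2.26). Among MYB factors Cs8g17920 was at 134 and 192 FPKM against 41.3 and 38.6 FPKM (log2 2.0 ± 0.22, adjusted p = 0.00015) and Cs3g23950 at 13.5 and 22.0 FPKM against 144 and 151 FPKM (log2 -3.09 ± 0.25, adjusted p = 3.7e-05). Control levels of this MYB pair were close, at log2 differences of -0.15 and -0.20.

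Of 284 receptor-like kinases, the plant's sensors at the cell surface, 47 were higher and 74 lower. The 47 became 75 without *C. grandis* +Al replicate 1 and 31 without *C. sinensis* +Al replicate 2, and the 74 became 39 and 38 without *C. sinensis* +Al replicate 1 and 2. In +Al roots 42.6% of the kinases were called, against 30.9% of all tested genes. With Al the difference moved up in 13 and down in 54 of 294 kinases tested for the change, against 5.3% and 8.5% of all genes. The kinase Cs5g06510 was at 20.8 and 36.7 FPKM against 91.1 and 94.9 FPKM (log2 -1.75 ± 0.27, adjusted p = 0.0011) and at 101 and 98.5 FPKM against 88.6 and 83.1 FPKM without Al. Of 152 calcium signalling genes 28 were higher and 23 lower, or 33.6% called, near the 30.9% of all tested genes. Among them were the kinase Cs2g04710 (log2 1.59 ± 0.21, adjusted p = 0.00041) and the calcium-binding protein orange1.1t04034 (log2 -1.72 ± 0.18, adjusted p = 0.00015).

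Defense genes had more calls to the lower side for chitinases and pathogenesis proteins, 19 of 47 tested against 8 higher (median -0.56), in a list that also holds both defensins. Of 104 resistance genes of the NBS-LRR type, receptors of pathogen effectors, 22 were higher and 17 lower, and the 17 became 7 without *C. sinensis* +Al replicate 1. The resistance gene orange1.1t05760 was listed at 0 in all 4 *C. sinensis* libraries and read 84.1 and 95.6 FPKM in +Al and 64.4 and 13.9 FPKM in control *C. grandis*.

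Among groups described above, the called share was 57.1% for metal transport, 57.4% for chitinases and pathogenesis proteins and 54% for lignin genes. It was 50% for UDP-glycosyltransferases and for ethylene genes, 48.9% for glutathione transferases, 46.9% for terpene genes, 46.4% for flavonoid genes and 37.5% for NBS-LRR genes. The other groups are given by count, to be set beside 12.5% higher and 18.4% lower of all tested genes. Their called shares ran from 22.2% (proton pumps and potassium transport) to 45.5% (transposon genes), against 30.9% of all tested genes. Proteases and inhibitors (29.1%), sugar transport (30.3%) and auxin genes (29%) lay near that share. Higher and lower members were 15 and 14 of 66 for nitrogen uptake, 4 and 2 of 27 for proton pumps and potassium transport, 9 and 7 of 43 for ABC transporters, 5 and 5 of 33 for sugar transport, 20 and 18 of 107 for antioxidant enzymes and 11 and 19 of 118 for heat shock proteins. They were 3 and 12 of 44 for phospholipases and lipoxygenases, 3 and 5 of 25 for NAC factors, 7 and 11 of 62 for auxin genes, 28 and 41 of 237 for proteases and inhibitors and 9 and 6 of 33 for transposon genes. In each of these groups the count in at least 1 direction moved by over 1.5 times when 1 library was left out, as from 14 to 7 lower nitrogen genes without *C. sinensis* +Al replicate 1, from 20 to 12 higher antioxidant genes without *C. sinensis* +Al replicate 2 and from 9 to 4 higher transposon genes without *C. grandis* +Al replicate 2.

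Under the rule for genes whose order turned or opened with Al, the putative DNA-binding protein XLOC_007502 had the largest move upward. It was at 65.1 and 74.0 FPKM in +Al *C. grandis* and 15.0 and 10.1 FPKM in +Al *C. sinensis* (log2 2.48 ± 0.25, adjusted p = 0.00011), and at 10.4 and 10.8 FPKM and 79.1 and 76.5 FPKM in control roots (log2 -2.86, adjusted p = 7.0e-05). The species thus exchanged places, with no overlap in either treatment. The gene was picked by its calls in both treatments, so this order follows from the rule. The methyltransferase orange1.1t04948, at 4.43 and 6.36 FPKM against 1.66 and 2.61 FPKM (log2 1.31 ± 0.38, adjusted p = 0.022), and the RNA helicase XLOC_004734, at 5.25 and 10.2 FPKM against 2.87 and 3.89 FPKM (log2 1.11 ± 0.38, adjusted p = 0.044), also exchanged places. These calls were weak, and orange1.1t04948 lost its call without any 1 of the 4 +Al libraries (1.00 to 1.62), as XLOC_004734 did without *C. grandis* +Al replicate 2 (0.64) and either *C. sinensis* +Al replicate (0.89 and 1.32). The former also lost it in a fit of all 8 libraries, and the latter with a pseudocount of 1 (0.94) or 0.01 (1.13), with no filter or with the genes at 0 included (1.11 in both), and without the trend (1.11).

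The metallothionein-like gene Cs1g07330, of a family of small metal-binding proteins, was lower in control *C. grandis*, 684 and 557 FPKM against 1647 and 2280.5 FPKM (log2 -1.65, adjusted p = 0.0023), and higher in +Al *C. grandis*, 3734 and 1943 FPKM against 1107 and 1542 FPKM (log2 1.04 ± 0.27, adjusted p = 0.014). The +Al call was lost without *C. grandis* +Al replicate 1 (0.57), without *C. sinensis* +Al replicate 1 (0.81), after quantile normalization (0.92), and after rescaling (1.11) and without the trend (1.04) by the adjusted p. The catechol O-methyltransferase-like gene Cs5g17970 was at 10.9 and 11.8 FPKM against 0.809 and 1.87 FPKM (log2 3.10 ± 0.41, adjusted p = 0.00045) with a control difference of 0.24.

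In the opposite direction the glycine-tRNA ligase orange1.1t05636 was listed at 0 in both +Al *C. grandis* libraries, against 21.6 and 49.8 FPKM in +Al *C. sinensis*, while control *C. grandis* read 27.6 and 47.9 FPKM. The aspartyl protease Cs9g06190 was at 1.26 and 3.16 FPKM against 45.3 and 52.8 FPKM (log2 -4.54 ± 0.39, adjusted p = 5.0e-05) and at 23.3 and 23.0 FPKM against 20.3 and 21.9 FPKM without Al. The SERK2-like kinase orange1.1t04474 was at 0.163 and 1.08 FPKM against 4.24 and 6.58 FPKM (log2 -3.27 ± 0.67, adjusted p = 0.0045) and the higher one in control *C. grandis* (1.51).

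Tyrosine decarboxylase Cs3g22910, which makes tyramine, was at 24.9 and 3.56 FPKM against 241 and 249.6 FPKM (log2 -4.68 ± 0.68, adjusted p = 0.00075), with control values of 50.1 and 50.3 FPKM and 62.7 and 58.3 FPKM. The acetyltransferase-like gene Cs3g03970 was at 14.0 and 0.914 FPKM against 112 and 116 FPKM (log2 -4.92 ± 0.92, adjusted p = 0.0029), the ERF factor Cs9g16820 at 0.556 and 4.85 FPKM against 30.5 and 27.9 FPKM (log2 -4.02 ± 0.74, adjusted p = 0.0026) and the expansin Cs1g07100 at 0.562 and 0 FPKM against 6.03 and 7.21 FPKM (log2 -4.70 ± 0.79, adjusted p = 0.0016). In these 4 genes the replicates of +Al *C. grandis* lay far apart. Both were below both *C. sinensis* replicates, in genes picked because they were called lower there. Their +Al calls were among those lost after median-ratio rescaling without either *C. sinensis* +Al library.

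**Figure D5:**
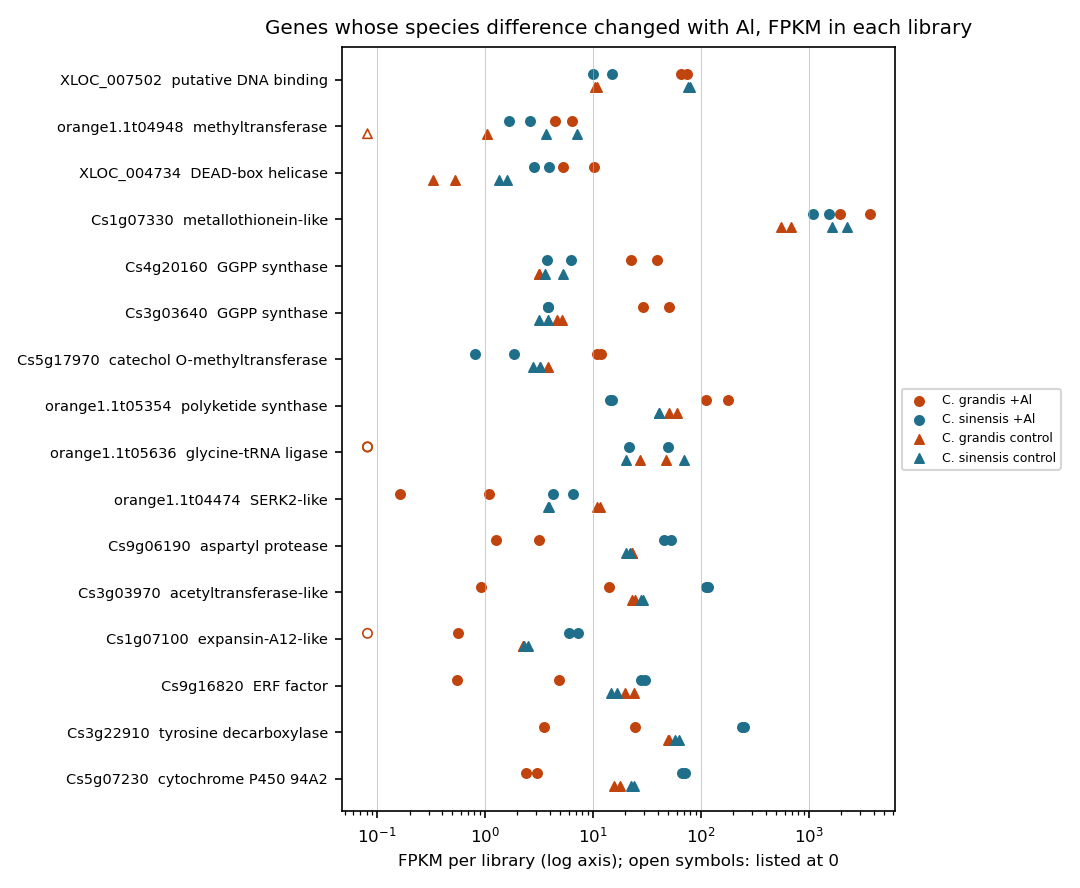
FPKM of 16 genes whose species difference moved with Al in each of the 8 libraries, on a log axis, with orange for *C. grandis*, blue for *C. sinensis*, circles for +Al, triangles for control roots and open symbols at the left for values listed at 0. For XLOC_007502 the +Al circles of *C. grandis* (65.1 and 74.0 FPKM) lie to the right of those of *C. sinensis* (15.0 and 10.1 FPKM) and the control triangles lie the other way round. The genes drawn were picked for such differences.

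Of the 377 genes kept apart because all 4 *C. grandis* libraries were at 0, 331 were above 0 in both +Al *C. sinensis* libraries, 307 also averaged 1 FPKM or more in control *C. sinensis*, 295 had no description and 147 reached a mean of 5 FPKM with Al. The highest were orange1.1t05073, with no description, at 2953 and 3223 FPKM, and the protein kinase orange1.1t05643 at 3146 and 2828 FPKM. Cs1g06970 followed at 567 and 617 FPKM, Cs9g15560 at 625.3 and 357 FPKM and orange1.1t05428 at 178 and 489 FPKM. All 5 were also above 0 in both control *C. sinensis* libraries. For these genes a missing gene, a diverged sequence, a failed estimate and lack of expression in *C. grandis* cannot be told apart.

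The mirror set, at 0 in all 4 *C. sinensis* libraries averaging 1 FPKM or more in +Al *C. grandis*, held 111 genes, of which 72 were above 0 in both +Al *C. grandis* libraries. These genes stayed in the test. Orange1.1t05726, described as a homogentisate phytyltransferase, read 0 in library 1 and 6532 FPKM in library 2 of +Al *C. grandis*, with the same split in control *C. grandis*, and did not pass (adjusted p = 0.12), nor did orange1.1t04962 (344 and 0 FPKM) and orange1.1t05804 (0 and 213 FPKM). Cs8g15490 read 376 and 314 FPKM in +Al *C. grandis* and 0 in the other 6 libraries, and XLOC_013618 101 and 114 FPKM in +Al and 109 and 50.6 FPKM in control *C. grandis*. With no description, Cs8g15490 and XLOC_013618 can only be given by their IDs.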

How the data were processed

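RNA-seq libraries came from roots of 2 *Citrus* species at 0 and 1 mM Al, 8 libraries in 4 groups of 2, each from 5 pooled seedlings. The deposited values are FPKM per gene, which the authors made by mapping reads to the *C. sinensis* genome. Per the labels their tools were Bowtie, TopHat2, Cufflinks, and edgeR 3.0.0 under R 2.1.5. For the genome build and the other versions, the sources used here give nothing. The study lists read and mapping totals per library, with a lower share of uniquely mapped reads in *C. grandis* than in *C. sinensis*. These totals were not used here, and depth is given only as the relative values above. No count test was possible on FPKM values. No column was without a sample (0).

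Genes averaging 1 FPKM or more in either species were tested with limma 3.58.1 (R 4.3.3) with a trend on log2(FPKM + 0.1), with Benjamini-Hochberg adjustment over all tested genes, in the +Al libraries, in the control libraries, and for the change between them in a fit of all 8. Calls needed an adjusted p of at most 0.05 and a log2 difference of at least 1. Genes at 0 in every *C. grandis* library were kept apart. In simulated data with as many libraries the +Al fit recovered 54, 80, 92 and 92% of genes planted at a log2 of 1.5, 2, 3 and 5, with 15 false calls among 18333 genes. The simulation used normal noise, 50 planted genes of each size and no shift between libraries. In the real +Al data 30.9% of genes were called and library 1 of *C. grandis* was shifted. These rates therefore cannot be carried over to the real data. Plots used matplotlib 3.10.9, and tables scipy 1.17.1, numpy 2.4.6 and pandas 2.3.3 (Python 3.11.15).

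The genes named are the 10 with the largest differences each way (at least 5 FPKM in the higher species, above 0 in all 4 +Al libraries, with a description), up to 3 called members of each gene list with the highest +Al mean together with members that the study names for Al, phosphate or sulfur, the 5 highest genes at 0 in every library of 1 species each way, and up to 8 genes each way whose difference changed most with Al. The last were called in the opposite direction in control roots or lay within 0.5 there. Not every gene that these rules allow is named. Lists were matched by words in the gene descriptions, which 9624 of the 19294 tested genes have. Members, lists and rules were chosen with earlier results of these data known, and the words of some lists were corrected after their matches were seen. Alternatives were other scalings, filters, pseudocounts, a fit without the trend, a replicate block, and leaving out each library.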

Additional observations from a re-analysis of the deposited data

Results flagged for a closer look

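For 94 of the named genes called in +Al roots, the difference between *C. grandis* and *C. sinensis* with Al also differed from that in control roots, by the limma test over all 8 libraries with Benjamini-Hochberg adjustment and a limit of 1 on the log2 scale. Values below are that change, the +Al difference less the control difference in log2, with no explanation attached, and a fit with 2 libraries a group recovers few small changes. The change shares its +Al libraries with the +Al calls, so that picking called genes favors a change in the direction of the call. Up to 8 genes each way were named because their change passed, by its size, so that for them a passed change was fixed by the pick.

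The wall and xylem genes listed here were all called lower in +Al *C. grandis*. All of these changes were negative, which a fall in *C. grandis*, a rise in *C. sinensis* or both can give. They were -2.43 for the xyloglucanase inhibitor Cs9g06240, -2.15 for orange1.1t02385, -3.25 for BRU1 Cs4g03145, -4.24 for expansin-like Cs8g02110 and -4.61 for expansin Cs1g07100. Pectin and cellulose genes changed by -1.91 (Cs1g16550), -1.41 (orange1.1t02719) and -1.27 (Cs7g05150), and wall proteins by -2.01 (XLOC_011383), -2.23 (Cs4g05470) and -2.22 (Cs3g08990). The peroxidases Cs2g03110 and orange1.1t02044 changed by -1.27 and -1.04. Over all 42 tested class III peroxidases the change passed downward in 10 and upward in 3. Xylem genes changed by -1.25 (Cs8g20850), -1.06 (Cs8g19850) and -1.83 (Cs8g01170), and the COBRA-like genes by -1.85 (Cs9g02720) and -1.83 (orange1.1t05508).

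For growth genes picked as called lower the change was negative too, -1.53 and -1.56 for the histones Cs8g18050 and Cs5g30530, -1.95 and -1.59 for the tubulins Cs8g03680 and Cs3g16600, -1.32 for actin Cs8g18400 and -1.14 for the ribosomal protein orange1.1t00625. Over all tested members the change passed downward in 21 and upward in 3 of 112 genes of cell division, DNA replication and histones. It did so in 13 and 1 of 81 cytoskeleton genes and in 7 and 1 of 82 cytosolic ribosomal proteins. The shares of all genes tested for the change were 8.5% and 5.3%.

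Transport and nutrient genes changed both ways. Upward changes were 1.13 (FRD3b Cs7g01770), 1.63 (MATE Cs3g16650), 2.55 (ALMT Cs5g31410), 1.21 (STOP1-like XLOC_021890), 1.07 (Cs2g01740), 1.68 (Cs6g09440), 1.59 (Cs3g18690) and 1.39 (Cs5g03070). Phosphate and other transport genes added 1.90 (SPX Cs4g17870), 2.24 (SPX orange1.1t00194), 2.05 (Cs8g12690), 2.0 (Cs3g27660), 2.56 (Cs1g15070), 1.56 (Cs2g11370) and 1.21 (Cs7g13200). Downward changes were -4.23 (ALMT Cs6g12750), -1.47 (Nramp6 XLOC_029822), -1.15 (Cs5g29860), -3.49 (Cs8g18760), -1.60 (Cs2g11750), -2.42 (APS reductase Cs2g02980), -1.11 (orange1.1t01755), -1.11 (Cs9g01410), -3.73 (Cs1g16430), -3.0 (Cs5g30850) and -1.44 (aquaporin Cs8g02530).

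Metabolic and redox genes also went both ways. The P450 enzymes changed by 2.98 (Cs3g08680), 3.88 (Cs3g09040), 4.87 (Cs8g09390) and -4.16 (Cs5g07230), and the GGPP synthases by 2.51 (Cs3g03630), 2.81 (Cs3g03640) and 3.06 (Cs4g20160). Other upward changes were 1.76 (orange1.1t01523), 1.95 (Cs8g04920), 2.82 (orange1.1t05354), 1.71 (orange1.1t05018), 2.86 (Cs5g17970) and 2.70 (metallothionein-like Cs1g07330). Other downward changes were -2.96 (Cs8g18310), -2.24 (Cs1g26810), -2.48 (Cs6g08600), -2.29 (Cs1g17380), -1.35 (Cs7g15610), -2.36 (Cs1g17420), -4.41 (Cs3g22910), -4.64 (Cs3g03970) and -2.61 (Cs9g02910).

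Among regulators and defense genes the upward changes were 2.76 (defensin XLOC_029963), 2.55 (Cs3g21500), 1.17 (orange1.1t00478), 2.16 (Cs8g17920), 1.41 (Cs2g04710), 5.34 (XLOC_007502), 5.27 (orange1.1t04948) and 2.71 (XLOC_004734). The downward ones were -2.03 (WRKY Cs7g06320), -2.90 (MYB Cs3g23950), -1.83 (ERF Cs5g33540), -4.49 (ERF Cs9g16820), -3.74 (orange1.1t03822), -4.77 (TIFY Cs2g03240), -1.92 (orange1.1t04034), -1.96 (Cs5g06510), -4.78 (orange1.1t04474) and -4.68 (Cs9g06190). For 4 further genes a group listed at 0 enters the fit, so that the values depend on the pseudocount. They were 11.75 for Cs8g15490, -8.49 for polyubiquitin orange1.1t05568, -8.31 for orange1.1t05636 and -2.72 for Cs9g18460.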

How the results depend on the processing

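Leaving out each library in turn, the count of genes higher in +Al *C. grandis* ranged from 1620 to 3157, of genes lower from 2409 to 4215, of +Al differences also called in control roots from 1193 to 1927 (1964 with all libraries) and of changes with Al from 1546 to 4135 (2720). With a fold limit of log2 2 there were 960 higher and 1522 lower genes, 749 also called in control roots and 878 changes. A mean of at least 5 FPKM left 1299 genes called in both treatments and 147 genes at 0, no filter gave 1526 at 0, and the adjusted p alone gave 3891 called in both treatments. Median-ratio rescaling combined with leaving out a library was chosen after the data were seen: without *C. sinensis* +Al replicate 1 it gave 1341 higher and 1053 lower genes and 928 in both treatments, without replicate 2 1360, 1000 and 947, and without *C. grandis* +Al replicate 1 4112 changes. Of 125 named genes called in +Al roots, 39 lost the call after rescaling without a *C. sinensis* +Al library, 6 under another scaling, filter, pseudocount or model or without a library, 3 of these without a +Al library, and 0 reversed. The 39 were, among wall and xylem genes, orange1.1t02385, Cs1g16550, XLOC_011383, Cs4g05470, Cs3g08990, Cs2g03110, orange1.1t02044, Cs1g07100, orange1.1t05508 and, without replicate 2 alone, Cs8g01170. Among growth genes they were Cs8g18050, Cs5g30530, Cs8g03680, Cs3g16600, Cs8g18400, orange1.1t00625 and Cs2g03510. Among transport and sulfur genes they were Cs7g01770, Cs6g12750, Cs8g02620, orange1.1t01755, Cs9g01410, Cs5g30850, Cs8g18760 and, without replicate 1 alone, orange1.1t01399. The others were Cs8g09390, Cs1g07330, orange1.1t03617, Cs8g18310, orange1.1t03773, Cs9g04210, Cs5g06510, Cs3g02125, orange1.1t04948, XLOC_004734, orange1.1t04474, Cs3g03970, Cs9g16820 and Cs3g22910. The cause was not tested.

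Whether the replicate numbers pair the samples was not settled, since the sources used here do not say and the control pairs were not examined. The deviations of the *C. grandis* and *C. sinensis* +Al pairs had a correlation of -0.065 across genes, which are not independent replicates. With the number as a block, 2487 genes were higher and 3566 lower in +Al *C. grandis* and 1992 were also called in control roots.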
